A study of Mus musculus with 6 samples.

Results

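The genes described here make up the contractile apparatus and cytoskeleton of smooth muscle. They are 33 named mouse genes, and each was found on the array through probe sets that the platform annotation assigns to that gene alone. Of the 33, 32 had such a probe set, 55 probe sets in all, out of 12393 genes measured in this way. Synm, which encodes the intermediate filament protein synemin, had none. RNA came from the ileum of male wild-type mice on a mixed C57BL/6:129Sv background, aged 8-10 months, and each group was run on 2 Affymetrix Mouse Genome 430A 2.0 arrays. In the BDL_GW4064 group the common bile duct was ligated and the mice received GW4064, a drug-like ligand that activates the nuclear receptor FXR, by gavage at 100 mg/kg/day for 2 days ahead of the operation and 5 days after it. The BDL_Vehicle group had the same ligation and received only the carrier (Tween 80 and methylcellulose) on those days. The Sham_Vehicle group received the carrier and had its bile duct mobilised but not tied. A GW4064 group without ligation was not analysed here, so every GW4064 value comes from ligated mice.

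The wall of the ileum is wrapped in an inner circular and an outer longitudinal layer of smooth muscle, with a thinner muscle sheet under the mucosa and muscle cells around its vessels. Contraction starts when calcium-bound calmodulin activates myosin light chain kinase, which phosphorylates the regulatory light chain so that smooth muscle myosin pulls on actin filaments. Tropomyosin, caldesmon and calponin lie along those filaments, which are anchored in dense bodies, linked by desmin filaments and fixed to the membrane by integrin and dystrophin complexes. Many of these genes are driven by serum response factor (SRF) and its coactivator myocardin through a short DNA element, the CArG box.

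The values are MAS5 signals, a linear brightness per probe set that the authors had scaled to the same trimmed mean of 200.1 on every array. Each gene is represented by its brightest probe set, and signals of different genes are not compared with each other, because probe sets differ in efficiency. Differences were computed as log2(signal + 4) and tested with limma over all 6 arrays, after the lowest 40% of probe sets were set aside. That filter lay at a signal of 37.1, below which a signal is called dim here. In every count of genes by fold between arrays, by overlap or by the order of the arrays, and in ranks, dim signals were set to that bound, for all genes alike, so that no order is read among them. The filter kept 27 of the 32 genes. Lmod1, Synpo2, Pdlim7, Itga8 and Myocd were not tested, and Cnn1 and Des passed only through 1 bright array. A gene was called when its p, adjusted by Benjamini-Hochberg over 13575 probe sets, was below 0.05. The labels do not say whether the 2 arrays of a group come from separate animals, so p-values measure the spread between these arrays, which may be technical. In whole ileum, fewer cells of a type and less RNA per cell cannot be told apart.

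The promoters are shown because so many of these genes differed together. RefSeq promoter windows (GRCm38.p6, from 250 bases before to 50 after the gene start) were found for 27 of the 33 genes, and 6 of the 27, or 22.2%, held a CArG box. Over all genes with a window, 488 of 27025, or 1.81%, held one. The CArG box was searched as CC, then 6 bases of A or T, then GG, and sequences that depart from this pattern were not counted. The CArG box reads the same on both strands in this search, and no other motif was searched. Capitals mark the CArG box in the following stretches, each read 5′ to 3′ along the gene. The stretches lie at chr2:156775283-156775332 on the plus strand for Myl9, chr10:128493030-128493079 on the minus strand for Myl6, chr14:34588687-34588736 on the minus strand for Ldb3, chrX:56779561-56779610 on the plus strand for Fhl1, chr14:20929151-20929200 on the plus strand for Vcl and chrX:82948752-82948801 on the plus strand for Dmd.
Myl9: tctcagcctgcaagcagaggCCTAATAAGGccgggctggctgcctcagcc
Myl6: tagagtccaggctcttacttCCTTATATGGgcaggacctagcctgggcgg
Ldb3: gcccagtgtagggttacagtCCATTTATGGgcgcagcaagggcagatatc
Fhl1: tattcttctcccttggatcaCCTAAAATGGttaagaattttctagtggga
Vcl: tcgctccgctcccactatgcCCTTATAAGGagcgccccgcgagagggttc
Dmd: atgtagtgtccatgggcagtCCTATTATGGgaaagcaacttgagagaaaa
These matches describe the windows and are not shown to be bound sites.

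Most of the smooth muscle genes stood far apart on 1 array, BDL_GW4064 replicate 2. Its signal was at least 2-fold that of BDL_GW4064 replicate 1 for 19 of the 32 genes, or 59.4%, against 1.18% of all genes measured, and it was at least 2-fold lower for 0 of the 32, against 0.468% of all genes. The median difference, replicate 2 minus replicate 1, was 1.72 on the log2 scale over the 32 genes and 0.01 over all genes. With dim signals at the bound, the median over the 32 genes was 1.42. Replicate 2 was at least 2-fold above replicate 1 for Myl9 alone, or 1 gene, in BDL_Vehicle, against 0.282% of all genes, and for 0 in Sham_Vehicle, against 0.315%. Between the replicates of these groups, the median over the 32 genes was 0.04 in BDL_Vehicle, where all genes had -0.07, and 0.10 in Sham_Vehicle, where all genes had -0.05. With 1 array on each side, these differences between replicates have no test.

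**Figure D1:**
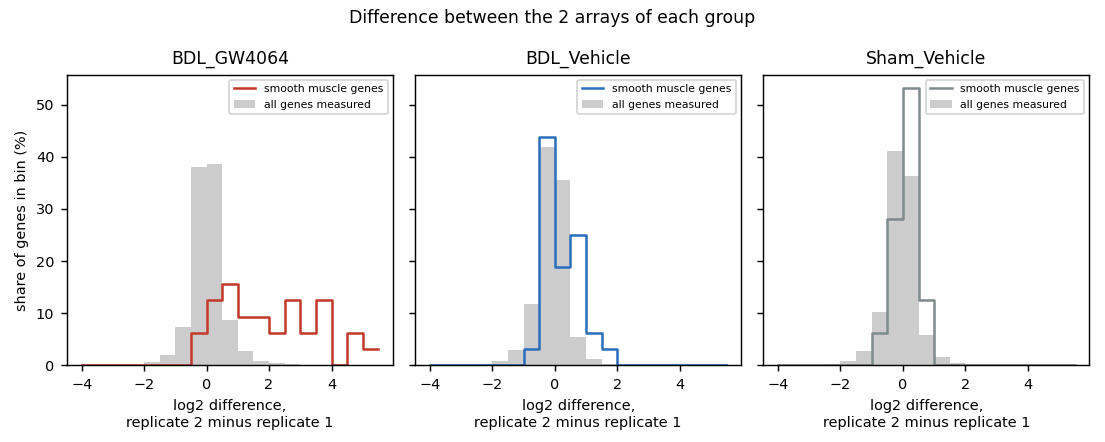
Distribution of the difference between the 2 arrays of each group, replicate 2 minus replicate 1, in log2(signal + 4), for the smooth muscle genes and for all genes measured. In BDL_GW4064 the smooth muscle genes lie to the right, with a median of 1.72, while in BDL_Vehicle and Sham_Vehicle their medians are 0.04 and 0.10.

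Among the contractile filament genes, the actins of smooth muscle differed between the BDL_GW4064 arrays by several fold. Acta2, the actin of vascular and visceral smooth muscle, had signals of 479.0 and 3119.2 in BDL_GW4064 replicates 1 and 2, against 283.7 and 348.7 in BDL_Vehicle and 396.5 and 460.7 in Sham_Vehicle. Actg2, the enteric smooth muscle actin, had signals of 71.0 and 1786.2 in BDL_GW4064, against 66.3 and 98.0 in BDL_Vehicle and 119.5 and 114.5 in Sham_Vehicle. Acta2 in BDL_GW4064 replicate 1 lay just above all 4 vehicle arrays, whereas Actg2 in that array lay among the BDL_Vehicle values and below both Sham_Vehicle arrays. The ratio of replicate 2 to replicate 1 was 6.47 for Acta2 and 23.9 for Actg2. A second Acta2 probe set was dim on all 6 arrays, between 11.9 and 22.4, and was not highest in BDL_GW4064 replicate 2.

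Both smooth muscle myosin subunits were also highest in BDL_GW4064 replicate 2. Myh11, the smooth muscle myosin heavy chain, had 92.5 and 1148.5 in BDL_GW4064, against 39.9 and 76.2 in BDL_Vehicle and 62.0 and 82.0 in Sham_Vehicle. Myl9, the regulatory light chain that the kinase phosphorylates, had 176.7 and 2136.4 in BDL_GW4064, against 59.8 and 138.6 in BDL_Vehicle and 136.0 and 173.1 in Sham_Vehicle. For both, replicate 2 was 11.9-fold and 11.8-fold replicate 1, and replicate 1 was itself slightly above the highest vehicle array. Mylk, the light chain kinase, had 1078.6 and 2564.6 in BDL_GW4064, against 1098.5 and 1271.0 in BDL_Vehicle and 1197.9 and 1266.4 in Sham_Vehicle. Here replicate 1 was the lowest of the 6 arrays and replicate 2 the highest, 2.37-fold apart. Myl6, the essential light chain shared with non-muscle myosin, had 186.3 and 232.6 in BDL_GW4064, against 203.9 and 197.6 in BDL_Vehicle and 215.5 and 188.6 in Sham_Vehicle, and its 6 values stayed close together.

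Genes that bind or regulate the thin filament gave the same picture with a wide range. Tagln, which encodes the actin-binding protein SM22, had 143.6 and 1992.2 in BDL_GW4064, against 68.5 and 101.2 in BDL_Vehicle and 74.9 and 117.7 in Sham_Vehicle. Cnn1, the smooth muscle calponin that restrains the myosin ATPase, had 32.6 and 918.1 in BDL_GW4064, against 13.2 and 32.5 in BDL_Vehicle and 33.8 and 34.6 in Sham_Vehicle. Tpm2, a tropomyosin, had 152.2 and 2064.2 in BDL_GW4064, against 117.6 and 169.7 in BDL_Vehicle and 139.8 and 196.6 in Sham_Vehicle. Replicate 2 was 13.5-fold replicate 1 for Tagln, 13.2-fold for Tpm2 and at least 22.4-fold for Cnn1, which was dim on every other array. Tagln in replicate 1 exceeded all vehicle arrays, while Tpm2 in replicate 1 lay within them. Cald1, caldesmon, had 144.8 and 759.4 in BDL_GW4064, against 84.8 and 84.6 in BDL_Vehicle and 98.0 and 101.1 in Sham_Vehicle. Flna, the actin cross-linker filamin A, had 173.9 and 1033.3 in BDL_GW4064, against 94.7 and 124.2 in BDL_Vehicle and 126.7 and 156.2 in Sham_Vehicle. Both BDL_GW4064 arrays were above all 4 vehicle arrays for Cald1 and Flna, with replicate 2 at 5.13-fold and 5.83-fold replicate 1.

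Smtn, smoothelin, an actin-associated protein of fully differentiated smooth muscle, had 60.2 and 401.7 in BDL_GW4064, against 51.2 and 54.6 in BDL_Vehicle and 59.9 and 74.8 in Sham_Vehicle. Lmod1, the smooth muscle leiomodin that nucleates actin filaments, had 5.4 and 90.3 in BDL_GW4064, against 2.4 and 1.8 in BDL_Vehicle and 1.9 and 3.3 in Sham_Vehicle. Lmod1 was above the dim bound in BDL_GW4064 replicate 2 alone, at least 2.29-fold over replicate 1, and Smtn stood apart in the same array at 6.32-fold. Tpm1, Actn1 and Dstn differed by less than 2-fold between the BDL_GW4064 arrays. Tpm1, another tropomyosin, had 1125.5 and 2065.5 in BDL_GW4064, against 1158.7 and 1127.8 in BDL_Vehicle and 1201.4 and 1068.3 in Sham_Vehicle. Actn1, alpha-actinin 1, had 412.2 and 745.9 in BDL_GW4064, against 442.6 and 382.4 in BDL_Vehicle and 458.6 and 392.0 in Sham_Vehicle. For both, BDL_GW4064 replicate 2 was the highest array, below 2-fold over replicate 1, and replicate 1 lay within the vehicle range. Another Tpm1 probe set had 54.4 and 71.2 in BDL_GW4064, against 67.2 and 41.5 in BDL_Vehicle and 93.2 and 74.9 in Sham_Vehicle. There BDL_GW4064 replicate 2 was not the highest array. Dstn, the actin-severing protein destrin, had 2925.5 and 2941.9 in BDL_GW4064, against 3387.0 and 2917.4 in BDL_Vehicle and 3077.8 and 3338.6 in Sham_Vehicle, so its BDL_GW4064 arrays were nearly equal and overlapped BDL_Vehicle.

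In the dense body and intermediate filament group, Des, which encodes desmin, had 22.3 and 839.3 in BDL_GW4064, against 8.6 and 34.5 in BDL_Vehicle and 29.6 and 17.4 in Sham_Vehicle. Desmin was dim on every array but BDL_GW4064 replicate 2, which was at least 20.5-fold over replicate 1. A second Des probe set did not follow, with 28.8 and 20.6 in BDL_GW4064, against 29.6 and 16.5 in BDL_Vehicle and 37.4 and 12.8 in Sham_Vehicle. Synpo2, an actin-bundling synaptopodin of dense bodies, had 4.3 and 66.8 in BDL_GW4064, against 2.9 and 1.0 in BDL_Vehicle and 6.8 and 2.3 in Sham_Vehicle, and it too was above the dim bound in replicate 2 alone. Csrp1, a LIM protein of the smooth muscle cytoskeleton, had 273.2 and 1597.3 in BDL_GW4064, against 135.0 and 219.3 in BDL_Vehicle and 138.0 and 202.4 in Sham_Vehicle. Both BDL_GW4064 arrays were above every vehicle array for Csrp1, and replicate 2 was 5.78-fold replicate 1.

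The PDZ and LIM domain proteins of actin anchorage differed from one another. Pdlim3 had 76.9 and 256.9 in BDL_GW4064, against 37.5 and 36.3 in BDL_Vehicle and 42.7 and 48.8 in Sham_Vehicle. Pdlim7 had 37.3 and 161.3 in BDL_GW4064, against 10.0 and 22.6 in BDL_Vehicle and 17.6 and 29.8 in Sham_Vehicle. Mustn1, a small nuclear protein of the musculoskeletal system, had 69.0 and 169.1 in BDL_GW4064, against 31.1 and 29.9 in BDL_Vehicle and 47.3 and 41.2 in Sham_Vehicle. For these 3 genes both BDL_GW4064 arrays were above all 4 vehicle arrays. Ldb3, better known from the Z-disc of striated muscle, had 469.7 and 357.0 in BDL_GW4064, against 500.8 and 501.0 in BDL_Vehicle and 510.3 and 599.0 in Sham_Vehicle. It ran the other way, with both BDL_GW4064 arrays lowest and replicate 2 below replicate 1. Both other Ldb3 probe sets were also lower in replicate 2 than in replicate 1. In 1 of them, however, BDL_GW4064 replicate 1 was the highest array. That probe set had 78.9 and 51.9 in BDL_GW4064, against 55.7 and 73.8 in BDL_Vehicle and 76.9 and 68.4 in Sham_Vehicle. Fhl1, a four-and-a-half LIM domain protein, had 607.8 and 551.4 in BDL_GW4064, against 564.4 and 496.8 in BDL_Vehicle and 517.9 and 384.3 in Sham_Vehicle, with overlap between the ligated groups.

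Membrane and adhesion genes had smaller differences between the arrays. Cav1, the caveolin that shapes membrane caveolae, had 119.1 and 411.6 in BDL_GW4064, against 94.0 and 86.2 in BDL_Vehicle and 83.9 and 123.1 in Sham_Vehicle. Tgfb1i1, the focal adhesion protein Hic-5, had 74.0 and 231.2 in BDL_GW4064, against 24.3 and 43.9 in BDL_Vehicle and 51.1 and 57.2 in Sham_Vehicle. Replicate 2 was 3.38-fold replicate 1 for Cav1 and 3.02-fold for Tgfb1i1, and Tgfb1i1 was above all vehicle arrays in replicate 1 too. Vcl, vinculin, had 831.2 and 872.8 in BDL_GW4064, against 633.6 and 628.8 in BDL_Vehicle and 738.5 and 837.1 in Sham_Vehicle. Its 2 BDL_GW4064 arrays were close together and above BDL_Vehicle. Parva, the integrin-linked actin binder alpha-parvin, had 66.0 and 116.3 in BDL_GW4064, against 67.5 and 55.9 in BDL_Vehicle and 74.1 and 78.7 in Sham_Vehicle. Dmd, dystrophin, had 76.5 and 154.8 in BDL_GW4064, against 124.8 and 78.9 in BDL_Vehicle and 101.1 and 76.1 in Sham_Vehicle. For both, replicate 1 overlapped the vehicle arrays. Another probe set of each ran differently. That of Parva had 95.5 and 102.7 in BDL_GW4064, against 87.9 and 62.4 in BDL_Vehicle and 55.4 and 40.4 in Sham_Vehicle, with both BDL_GW4064 arrays above all vehicle arrays. That of Dmd had 29.9 and 47.4 in BDL_GW4064, against 69.8 and 29.5 in BDL_Vehicle and 73.1 and 65.2 in Sham_Vehicle, where BDL_GW4064 replicate 2 was not the highest array. Itga8, the integrin alpha 8 chain, was dim on every array, between 10.6 and 20.7.

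Ckb, the brain-type creatine kinase that buffers ATP, had 515.8 and 1011.8 in BDL_GW4064, against 508.6 and 658.6 in BDL_Vehicle and 409.0 and 349.1 in Sham_Vehicle. Both ligated groups were above Sham_Vehicle, and BDL_GW4064 replicate 2 was 1.95-fold replicate 1. Myocd, the coactivator myocardin, was dim throughout, at 7.6 and 19.3 in BDL_GW4064, against 6.3 and 10.6 in BDL_Vehicle and 7.6 and 7.4 in Sham_Vehicle.

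**Figure D2:**
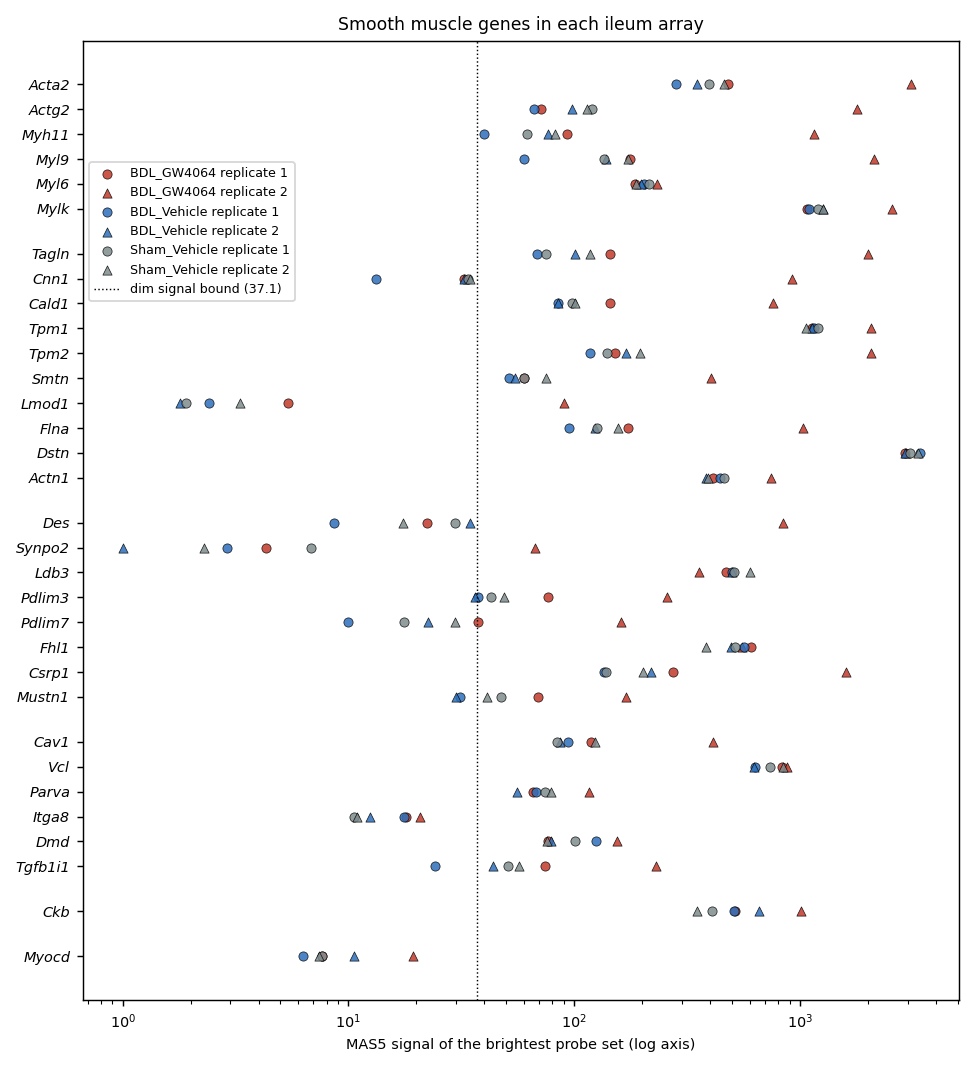
MAS5 signal of the brightest probe set of each smooth muscle gene (log axis) on each of the 6 arrays, ordered by role, with a dotted line at the dim bound of 37.1. With dim signals set to the bound, BDL_GW4064 replicate 2 (red triangles) is the highest array for 27 of the 32 genes. The exceptions are Dstn, Ldb3 and Fhl1, and also Itga8 and Myocd, whose plotted signals are all dim and are given no order.

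By role, the median log2 difference between BDL_GW4064 replicates 2 and 1, with dim signals at the bound, was 3.13 over the 6 contractile filament genes, 2.45 over the 10 thin filament genes, 1.47 over the 8 dense body and intermediate filament genes and 0.88 over the 6 membrane and adhesion genes. BDL_GW4064 replicate 2 was the highest of the 6 arrays for 27 of the 32 genes, against 14.4% of all genes. Of the 10 genes with the largest difference among all 12393, 7 were smooth muscle genes of this list, as were 19 of the first 100. Of the 15 genes with a promoter window that were at least 2-fold higher in replicate 2, 1 held the CArG box shown above, namely Myl9, against 5 of the 11 other measured genes with a window. Actg2, Myh11, Tagln and Tgfb1i1 were also at least 2-fold higher but had no window, so this count leaves them out. A CArG box outside the windows, or one that departs from the exact pattern searched, would not be seen. Whether the boxes relate to the difference was not tested.

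BDL_GW4064 replicate 1, taken alone, stood much nearer the vehicle arrays. It was above both BDL_Vehicle arrays for 15 of the 32 genes, against 23.2% of all genes, and below both for Myl6, Mylk, Tpm1, Ldb3 and Dmd, or 5 genes, against 22.4%. It exceeded all 4 vehicle arrays for 12 genes, against 15.8% of all genes. These were Acta2, Myh11, Myl9, Tagln, Cald1, Flna, Csrp1, Pdlim3, Pdlim7, Fhl1, Mustn1 and Tgfb1i1. It was below all 4 for Myl6, Mylk and Ldb3, or 3 genes, against 14.5%. It was at least 2-fold above the BDL_Vehicle mean for 0 genes, against 0.960% of all genes, while BDL_GW4064 replicate 2 was so for 19 genes, against 1.75%. The median over the 32 genes, relative to the BDL_Vehicle mean, was 0.32 in replicate 1 and 2.67 in replicate 2, and relative to the Sham_Vehicle mean it was 0.12 in replicate 1 and 2.21 in replicate 2. With dim signals at the bound, these medians were 0.05 and 2.04 relative to BDL_Vehicle and 0.00 and 1.91 relative to Sham_Vehicle.

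**Figure D3:**
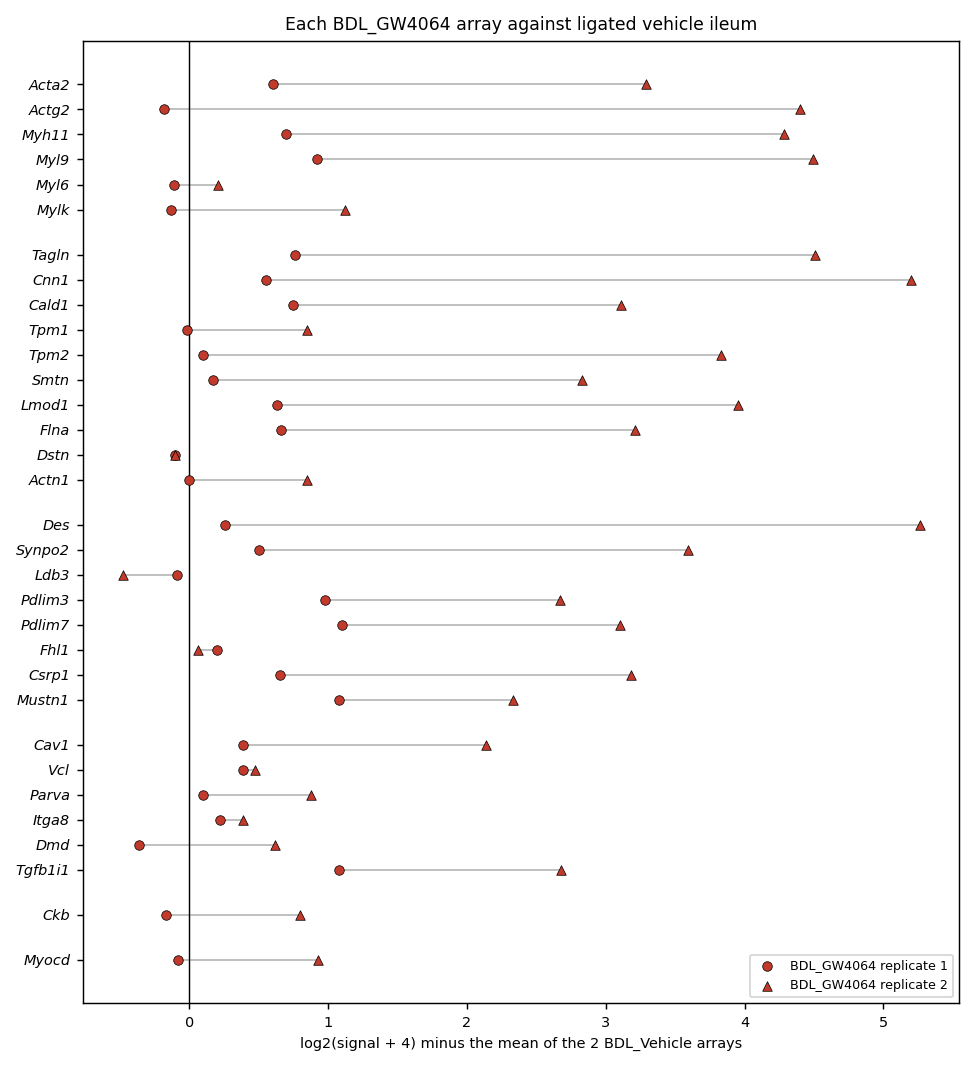
Each smooth muscle gene in the 2 BDL_GW4064 arrays, as the log2 difference from the mean of the BDL_Vehicle arrays. The medians over 32 genes are 0.32 in replicate 1 and 2.67 in replicate 2.

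The effect of GW4064 within ligated mice was examined by comparing BDL_GW4064 with BDL_Vehicle. By limma, 0 of the 27 tested genes passed the adjusted threshold, where 0.0758% of the 7919 genes tested were called higher and 0.0126% lower. At an unadjusted p below 0.05, 13 of the 27 were higher, against 5.06% of genes tested, and 0 were lower, against 2.41%. Cnn1 is among the 13 and passed the filter only through BDL_GW4064 replicate 2, so its count there is no separate evidence. The groups did not overlap, with BDL_GW4064 higher, for 14 of the 32 genes, against 12.7% of all genes, and with BDL_GW4064 lower for Ldb3 alone, against 10.7%. The median log2 fold change over the 32 genes was 1.77, with 30 positive and 2 negative, and over all genes it was 0.01. It was 1.14 with dim signals at the bound, and 0.75 over all 55 probe sets of these genes in place of the brightest of each.

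Fold changes were large and their errors, which carry the gap between the 2 BDL_GW4064 arrays, were large too. On the log2 scale, Myl9 was higher by 2.70 ± 0.97 (SE, adjusted p 0.558 by limma), Tagln 2.64 ± 0.99 (adjusted p 0.572 by limma) and Myh11 2.49 ± 0.96 (adjusted p 0.583 by limma). Acta2 had 1.95 ± 0.70 (adjusted p 0.558 by limma), and Actg2, with the widest gap of the actins, had 2.11 ± 1.18 (adjusted p 0.789 by limma). The smallest adjusted p-values belonged to genes whose replicate 1 was also above both BDL_Vehicle arrays. Mustn1 had 1.70 ± 0.39 (adjusted p 0.308 by limma), which is at least 2.74-fold because both BDL_Vehicle arrays were dim, Pdlim3 had 1.83 ± 0.48 (adjusted p 0.370 by limma) and Tgfb1i1 1.88 ± 0.50 (adjusted p 0.372 by limma). Vcl had a small but even difference of 0.43 ± 0.13 (adjusted p 0.426 by limma). Against the dim BDL_Vehicle arrays, the BDL_GW4064 mean was at least 4.47-fold higher for Cnn1, at least 3.62-fold for Des and at least 2.01-fold for Pdlim7.

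The comparison rests on which BDL_GW4064 array is used. Without replicate 1, 15 of the 27 genes were called higher by limma, against 0.442% of genes tested, among them Acta2 (log2 fold change 3.29, adjusted p 0.00627), Actg2 (4.40, adjusted p 0.00627) and Cald1 (3.11, adjusted p 0.00708). Cnn1 and Des are among the 15 and passed the filter only through the array being tested, which leaves 13 others. There the lone BDL_GW4064 array is assumed to vary like the other groups, although the 2 BDL_GW4064 arrays lay far apart for these genes. With both arrays, the SE was 0.70 for Acta2, 1.18 for Actg2 and 0.62 for Cald1. Without replicate 1 it was 0.21, 0.27 and 0.21, so these p-values leave out that gap and do not measure an effect of GW4064. The same holds for the fit without replicate 1 against Sham_Vehicle. Without replicate 2, 0 of the 27 were called higher, against 0.139% of genes tested, 6 had an unadjusted p below 0.05 and were higher, against 4.33% of genes tested, and these were Acta2, Cald1, Flna, Pdlim3, Mustn1 and Tgfb1i1. Actg2 then had a log2 fold change of -0.18 and Mylk -0.13.

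BDL_GW4064 against Sham_Vehicle, a comparison that shares its BDL_GW4064 arrays with the previous one, gave 0 of 27 called by limma, where 0.0126% of genes tested were called in each direction. At an unadjusted p below 0.05, 8 were higher, against 7.15% of genes tested, and Ldb3 was lower, against 7.08%. The groups did not overlap for 13 genes with BDL_GW4064 higher, against 16.5% of all genes, and for Dstn and Ldb3 with BDL_GW4064 lower, against 15.9%. The median log2 fold change over the 32 genes was 1.22, and over all genes -0.02. Over all probe sets of these genes it was 0.80, and with dim signals at the bound it was 1.05. Csrp1 had 1.96 ± 0.70 (adjusted p 0.253 by limma), Pdlim3 1.55 ± 0.48 (adjusted p 0.216 by limma), Ckb 0.93 ± 0.30 (adjusted p 0.228 by limma) and Ldb3 -0.43 ± 0.17 (adjusted p 0.285 by limma). Without BDL_GW4064 replicate 1, 12 of the 27 were called higher, Cnn1 among them, against 0.215% of genes tested. Without replicate 2, 0 were called higher, against 0.0253%, 0 had an unadjusted p below 0.05 with a higher value, against 4.80%, and the median was 0.12.

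Ligation itself was compared between BDL_Vehicle and Sham_Vehicle. The median log2 fold change was -0.22 over the 32 smooth muscle genes, 25 of them negative, and -0.04 over all genes. With dim signals at the bound it was -0.10. By limma, 0 of 27 were called, where 0.0379% of genes tested were called lower and 0 higher. At an unadjusted p below 0.05, Vcl was lower, or 1 gene, against 3.06% of genes tested, and 0 were higher, against 2.95%. The groups did not overlap for 11 genes with BDL_Vehicle lower, against 13.0% of all genes, and for Ckb with BDL_Vehicle higher, against 11.7%. Vcl had -0.32 ± 0.13 (adjusted p 0.751 by limma), Acta2 -0.44 ± 0.70 (adjusted p 0.917 by limma), Myl9 -0.72 ± 0.97 (adjusted p 0.893 by limma) and Ckb 0.61 ± 0.30 (adjusted p 0.751 by limma). A second Vcl probe set did not follow, with 0.04 ± 0.31 (adjusted p 0.987 by limma). Parva had -0.30 ± 0.28 (adjusted p 0.845 by limma). Its second probe set ran the other way, with 0.61 ± 0.25 (unadjusted p 0.0451 and adjusted p 0.751 by limma). BDL_Vehicle replicate 1 was the lowest of the 4 vehicle arrays for 12 of the 32 genes, against 13.7% of all genes.

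Other genes of the smooth muscle cell, 52 of them measured and 28 tested, were also examined. BDL_GW4064 replicate 2 was at least 2-fold above replicate 1 for 11 of the 52, against 1.18% of all genes, and 0 were called between BDL_GW4064 and BDL_Vehicle. Sspn, sarcospan of the dystrophin complex, had 19.6 and 88.7 in BDL_GW4064, against 13.8 and 9.1 in BDL_Vehicle and 19.3 and 21.5 in Sham_Vehicle. Hspb1, a small heat shock protein that binds actin, had 184.3 and 602.3 in BDL_GW4064, against 105.0 and 103.7 in BDL_Vehicle and 99.4 and 116.5 in Sham_Vehicle. Gucy1b1, a subunit of the nitric oxide receptor guanylate cyclase, had 72.7 and 110.5 in BDL_GW4064, against 34.7 and 35.7 in BDL_Vehicle and 55.1 and 56.1 in Sham_Vehicle. The first stood apart only in replicate 2, while Hspb1 and Gucy1b1 were above the vehicle arrays in both replicates. Transcription factors of smooth muscle did not show the pattern, with 0 of 14 at least 2-fold higher in replicate 2 and a median difference of -0.05. Srf, the factor that binds the CArG box, had 116.5 and 124.5 in BDL_GW4064, against 136.0 and 158.4 in BDL_Vehicle and 151.2 and 134.3 in Sham_Vehicle. The non-muscle actin Actg1 had 4769.6 and 4756.2 in BDL_GW4064, against 4706.9 and 4540.8 in BDL_Vehicle and 4679.1 and 4368.2 in Sham_Vehicle, and the striated actins Acta1 and Actc1 were dim on all 6 arrays.

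Markers of other cells of the gut wall were examined beside the muscle genes, and the share of all genes at least 2-fold higher in BDL_GW4064 replicate 2 than in replicate 1, to set beside each count, is the same 1.18%. Of 24 enteric neuron, glia and pacemaker markers, Vip and Gal, or 2 genes, were at least 2-fold higher, and the summed signals were 541.5 and 1061.6 in BDL_GW4064, against 709.4 and 460.6 in BDL_Vehicle and 668.6 and 711.7 in Sham_Vehicle. Vip, the neuropeptide of inhibitory motor neurons, had 2.5 and 78.3 in BDL_GW4064, against 12.1 and 8.2 in BDL_Vehicle and 12.0 and 19.8 in Sham_Vehicle. Of these markers, 11 were dim on all 6 arrays. Above the dim bound in BDL_GW4064 replicate 2 alone were 6, against 183 of all 12393 genes. Their median difference, replicate 2 minus replicate 1, was 0.91, and 0.00 with dim signals at the bound. Of 7 mesothelial markers, which belong to the outer lining of the gut, Upk3b was the 1 gene at least 2-fold higher in replicate 2. Of the 7, 3 were above the dim bound in BDL_GW4064 replicate 2 alone. Their median difference, replicate 2 minus replicate 1, was 1.67, and 0.00 with dim signals at the bound. Over all genes these medians were 0.01 and 0.00. Upk3b had 9.7 and 97.3 in BDL_GW4064, against 3.1 and 12.8 in BDL_Vehicle and 12.8 and 11.4 in Sham_Vehicle, while the summed mesothelial signal, 4698.7 and 4387.9 in BDL_GW4064, 4319.1 and 4765.2 in BDL_Vehicle and 4662.8 and 3954.2 in Sham_Vehicle, was nearly all Krt19, which the epithelium also makes. Of 8 pericyte and vascular mural markers, 3 were at least 2-fold higher in replicate 2, and the list summed to 678.2 and 1681.8 in BDL_GW4064, against 334.2 and 337.0 in BDL_Vehicle and 401.0 and 561.5 in Sham_Vehicle. Rgs5, one of these pericyte markers, had 333.0 and 1159.2 in BDL_GW4064, against 79.7 and 131.7 in BDL_Vehicle and 132.0 and 226.9 in Sham_Vehicle. Of 8 fat cell markers of the mesentery, 3 were at least 2-fold higher in replicate 2, and the list summed to 1034.1 and 1695.4 in BDL_GW4064, against 472.9 and 872.7 in BDL_Vehicle and 516.8 and 1061.8 in Sham_Vehicle. Fabp4, a fat cell marker that endothelial cells also express, had 195.5 and 665.3 in BDL_GW4064, against 71.3 and 194.3 in BDL_Vehicle and 84.9 and 325.9 in Sham_Vehicle. No marker read 0 on any array, and the part of these markers in the muscle result was not tested.

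Collagen and fibroblast genes were high in both BDL_GW4064 arrays. Their summed signals were 7549.6 and 8408.7 in BDL_GW4064, against 2815.8 and 3652.4 in BDL_Vehicle and 3031.3 and 4444.6 in Sham_Vehicle. The median difference between replicates 2 and 1 was -0.02 over 24 genes, and replicate 1 was above all 4 vehicle arrays for 21 of them, against 15.8% of all genes. Replicate 2 was at least 2-fold above replicate 1 for 4 of the 24, or 16.7%, against 1.18% of all genes, namely Dcn, Lum, Mgp and Dpt. Mgp, matrix Gla protein, had 33.8 and 240.1 in BDL_GW4064, against 26.2 and 33.2 in BDL_Vehicle and 44.4 and 41.8 in Sham_Vehicle. Fn1, fibronectin, had 631.7 and 620.5 in BDL_GW4064, against 168.0 and 161.7 in BDL_Vehicle and 187.3 and 230.8 in Sham_Vehicle, and rose by 1.90 ± 0.16 against BDL_Vehicle (SE, adjusted p 0.0094 by limma). Endothelial markers summed to 1357.8 and 1272.0 in BDL_GW4064, against 680.8 and 834.1 in BDL_Vehicle and 566.7 and 912.7 in Sham_Vehicle, again with both BDL_GW4064 arrays high. Absorptive enterocyte markers summed to 71950.9 and 63731.0 in BDL_GW4064, against 65245.9 and 70484.3 in BDL_Vehicle and 70534.7 and 69723.4 in Sham_Vehicle. This sum was highest in BDL_GW4064 replicate 1 and lowest in replicate 2, and the median difference between replicates 2 and 1 was -0.17 over the 19 markers. Replicate 1 was above the BDL_Vehicle mean for 12 of the 19 and replicate 2 for 5, against 6382 and 6578 of all 12393 genes. Of 16 skeletal muscle markers, 12 were dim on every array, and Ckm, the muscle creatine kinase, was above the bound in BDL_GW4064 replicate 2 alone. It had 21.1 and 123.7 in BDL_GW4064, against 29.4 and 13.3 in BDL_Vehicle and 25.6 and 10.5 in Sham_Vehicle. Whether the muscle and collagen genes differ in this respect was not tested.

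**Figure D4:**
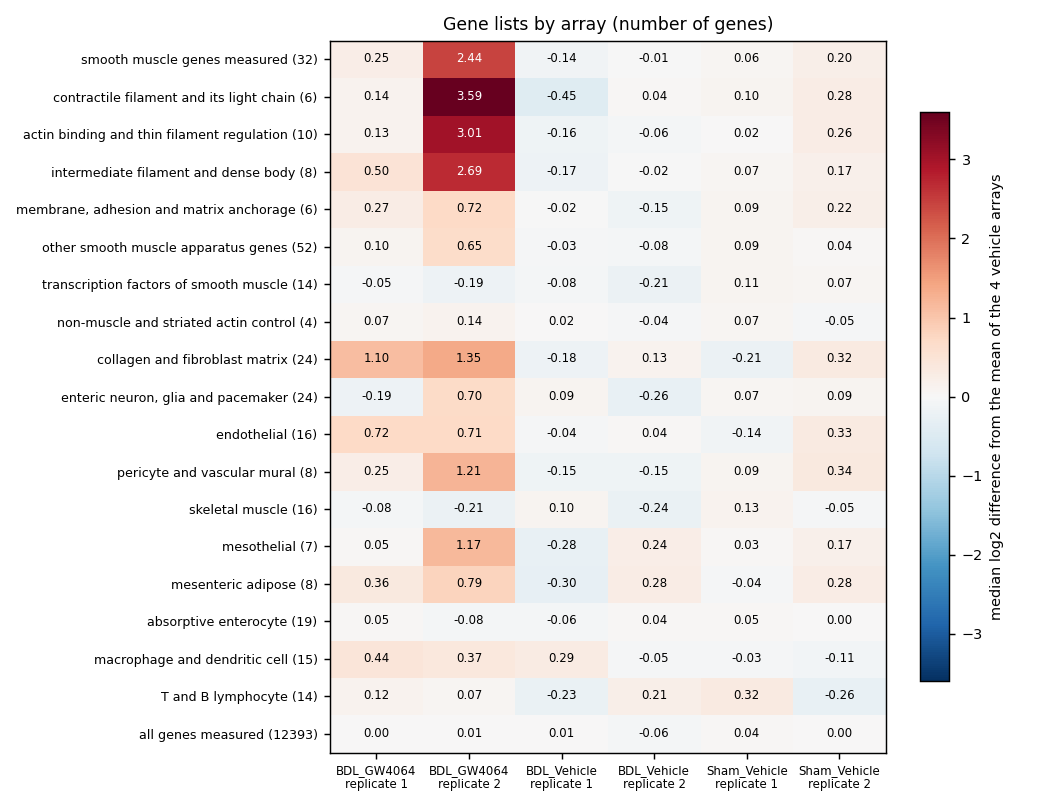
Median log2 difference from the mean of the 4 vehicle arrays, for each role group of smooth muscle genes and each marker list (number of genes in brackets), on each array. The muscle groups are high in BDL_GW4064 replicate 2, collagen genes are high in both BDL_GW4064 arrays (1.10 and 1.35), and enterocyte markers are near 0 (0.05 and -0.08).

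A technical split also ran across the groups. The 18S ribosomal 5′ control read 9.0 and 8.6 in BDL_GW4064, against 88.7 and 13.3 in BDL_Vehicle and 88.0 and 67.3 in Sham_Vehicle, so both BDL_GW4064 arrays and BDL_Vehicle replicate 2 read low. The ratio of the actin 3′ and 5′ controls was 1.11 and 1.15 in BDL_GW4064, against 1.22 and 1.09 in BDL_Vehicle and 1.14 and 1.73 in Sham_Vehicle. With that split as a term, 0 of the 27 genes were called higher in BDL_GW4064 than in BDL_Vehicle, against 0.0253% of genes tested, and 4 had an unadjusted p below 0.05 and were higher, against 3.37% of genes tested, namely Pdlim3, Mustn1, Vcl and Tgfb1i1. Between BDL_GW4064 and Sham_Vehicle, whose arrays lie on opposite sides of the split, 0 were higher at an unadjusted p below 0.05 by limma with that term, against 1.67% of genes tested. Only BDL_Vehicle has arrays on both sides of the split, so the term is set by the gap between its 2 arrays. The fit against BDL_Vehicle thus amounts to leaving out BDL_Vehicle replicate 1, and the fit against Sham_Vehicle rests on that gap. Neither can tell the split apart from the difference between those 2 arrays. The 2 BDL_GW4064 arrays lie on the same side of the split, which does not separate replicate 2 from replicate 1.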

How the data were processed

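The deposited values were MAS5 intensity values per probe set, and the submitters' processing notes name MAS5. Its version and settings are not given in the sources used here. Of 22690 probe sets, 64 controls were left out, and 20380 of the other 22626 were annotated to 1 gene. Signals were analysed as log2(signal + 4), so fold changes of dim genes come out too small. The dimmest 40% of probe sets, by mean over the 6 arrays, were left out, and limma 3.58.1 (R 4.3.3) was fitted with 1 mean per group, an intensity-trended prior and 3 residual degrees of freedom, with Benjamini-Hochberg adjustment at 0.05. The test was checked on simulated data in which both BDL_GW4064 arrays carried the same change, so a change in replicate 2 alone was not simulated. Where both arrays on one side were dim, 37.1 stood in for that side's signal and the result is a bound on the fold. With 2 arrays a group, an exact permutation test of 1 gene cannot go below 0.333, so none was used, and the number of arrays limits the precision.

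All smooth muscle genes could be named, each by its brightest probe set. Of every other list, up to 4 genes with the smallest p and up to 4 with the largest replicate difference in BDL_GW4064, plus the actin controls, could be named. The genes and lists were chosen with earlier results of these data known. Setting dim signals to the bound in counts and ranks was chosen after the values were seen. Promoter windows came from RefSeq tables of GRCm38.p6. Alternatives covered the normalization, pseudocount, filter, prior, samples, replicate number, array split, array weights and each array left out.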

Additional observations from a re-analysis of the deposited data

How the results depend on the processing

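Leaving out 1 array at a time moved the number of smooth muscle genes called between 0 and 15 for BDL_GW4064 against BDL_Vehicle and between 0 and 12 for BDL_GW4064 against Sham_Vehicle, with the high counts in both cases without BDL_GW4064 replicate 1. It was 0 under every other alternative run and throughout BDL_Vehicle against Sham_Vehicle. The median log2 fold change for BDL_GW4064 against BDL_Vehicle ranged from 0.32 to 2.67 with 1 array left out. The median difference between the BDL_GW4064 arrays was 1.60 with median centring, 1.61 with a pseudocount of 16 and 1.25 over all probe sets, over which the fold-change medians were 0.75 against BDL_Vehicle and 0.80 against Sham_Vehicle. With 1 array left out, the log2 fold change against BDL_Vehicle ranged from -0.18 to 4.40 for Actg2 and from -0.13 to 1.12 for Mylk, negative without BDL_GW4064 replicate 2. For Dstn it ranged from -0.21 to 0.01, and it was 0.01 with the array split as a term. The median over only the genes that passed the filter was chosen after seeing the data. With the replicate block, 0 genes were called in each comparison, and that median was 1.70 for BDL_GW4064 against BDL_Vehicle. Deviations of same-numbered arrays correlated at 0.037, 0.094 and -0.119, so the numbers were not taken as pairs. Single dim probe sets have no detection calls here, which limits what can be said of genes below 37.1.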

Other observations

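Genes outside the lists with a large difference between the BDL_GW4064 arrays included some of the muscle and connective tissue layers. Dmpk, the kinase gene of myotonic dystrophy, which smooth muscle expresses, had 50.1 and 507.8 in BDL_GW4064, against 69.0 and 58.3 in BDL_Vehicle and 66.2 and 93.8 in Sham_Vehicle. Slc24a3, a sodium-calcium exchanger, had 19.4 and 303.8 in BDL_GW4064, against 10.7 and 25.8 in BDL_Vehicle and 40.2 and 45.3 in Sham_Vehicle. Grem1, a secreted BMP antagonist, had 24.4 and 233.2 in BDL_GW4064, against 32.5 and 50.1 in BDL_Vehicle and 54.3 and 41.0 in Sham_Vehicle. All 3 were highest in BDL_GW4064 replicate 2 and within or near the vehicle range in replicate 1. Lgals1, galectin 1, had 113.9 and 468.6 in BDL_GW4064, against 78.8 and 78.3 in BDL_Vehicle and 98.6 and 86.1 in Sham_Vehicle, with both BDL_GW4064 arrays above every vehicle array. Tmem87a, H2-Bl and Krtap12-1 differed in another way, with replicate 1 as the lowest array. Tmem87a had 2.9 and 133.8 in BDL_GW4064, against 236.6 and 147.6 in BDL_Vehicle and 111.8 and 97.0 in Sham_Vehicle. H2-Bl had 191.5 and 1141.7 in BDL_GW4064, against 1564.8 and 1452.1 in BDL_Vehicle and 1766.6 and 1799.4 in Sham_Vehicle. Krtap12-1 had 8.1 and 47.6 in BDL_GW4064, against 87.8 and 49.3 in BDL_Vehicle and 85.2 and 46.3 in Sham_Vehicle.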
